A study of Mus musculus with 7 samples.

Results

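The genes described here encode the proteins of the cytosolic ribosome, with a few paralogs of them. They are the 82 rows of the count table whose symbol follows the ribosomal protein nomenclature (Rps or Rpl with a number, Rplp0 to Rplp2, and Rpsa) and that had at least 10 counts in at least 2 of the 7 libraries. The table held 23337 gene symbols, of which 84 matched the nomenclature. Of the 82 members, 31 were canonical proteins of the small subunit, 46 were canonical proteins of the large subunit, and 5 were paralogs (Rpl3l, Rpl7l1, Rpl22l1, Rps27l and Rps4y2). Poly(A)-selected RNA of the left ventricle was sequenced in mice at E12.5 (day 12.5 of embryonic development), after the mothers had been injected with tamoxifen at E11.5. The embryos of both groups carried Gt(ROSA)26Sortm1(cre/ERT2)Tyj, a tamoxifen-activated Cre recombinase in the broadly expressed Rosa26 locus, and all were exposed to tamoxifen. At the Tbx5 locus, the 5 control libraries came from Tbx5+/+ embryos and the 2 mutant libraries from Tbx5flox/flox embryos. The comparison asked which left ventricular transcripts depend on Tbx5, a cardiac T-box transcription factor. The labels name no litter, so p-values measure only the spread between these samples.

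A ribosome joins a small subunit, which reads the messenger RNA, to a large subunit, which forms the peptide bonds. Each canonical ribosomal protein is needed in nearly equal numbers, and growing tissues such as the embryonic heart make large amounts of these short messages. Many of the messages start with a stretch of pyrimidines, the 5′ terminal oligopyrimidine (TOP) motif, through which mTORC1 and the RNA-binding protein LARP1 control their translation. A few of the proteins have paralogs with tissue-restricted expression, among them Rpl3l in striated muscle.

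RefSeq start sites (GRCm38.p6, the assembly also called mm10) were found for 61 of the 82 members, 57 of them canonical and 4 paralogs. A run of at least 6 C or T letters covered the annotated start in 19 of the 57 canonical genes (33.3%) and in 0 of the 4 paralogs. It did so in 8.485% of all 27025 genes with a RefSeq promoter. A gene with several promoters was counted if any of them had the run. The windows below show canonical genes with a run, taken from the longest runs and from genes described further on, and 3 paralogs without one. The 38 canonical genes without a run are not shown, and 4 paralogs are too few to compare the classes. Each window runs 5′ to 3′ from 20 bases before the annotated start through the first 20 bases of the gene, and capitals mark the C/T run that covers the start.
Rpl7a (large subunit, chr2:26910787-26910826, plus strand): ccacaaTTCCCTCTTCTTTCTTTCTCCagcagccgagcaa
Rpl34 (large subunit, chr3:130730318-130730357, minus strand): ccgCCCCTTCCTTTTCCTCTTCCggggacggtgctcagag
Rps27 (small subunit, chr3:90213629-90213668, minus strand): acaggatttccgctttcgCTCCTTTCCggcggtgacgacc
Rps15a (small subunit, chr7:118116128-118116167, minus strand): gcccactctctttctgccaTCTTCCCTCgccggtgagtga
Rplp2 (large subunit stalk, chr7:141447631-141447670, plus strand): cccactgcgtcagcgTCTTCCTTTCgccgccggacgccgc
Rps27l (paralog of Rps27, chr9:66946066-66946105, plus strand): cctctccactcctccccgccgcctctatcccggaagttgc
Rpl22l1 (paralog of Rpl22, chr3:28805488-28805527, plus strand): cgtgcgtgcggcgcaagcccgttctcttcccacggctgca
Rpl3l (paralog of Rpl3, chr17:24727806-24727845, plus strand): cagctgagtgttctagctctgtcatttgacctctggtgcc
A run is a description of these letters and depends on where the annotation places the start. In the Rpl22l1 window a stretch of C and T letters begins just after the annotated start without covering it.

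The 300 bases of each promoter (250 before and 50 after the start) were searched on both strands, and a gene was counted if any of its promoters matched. The letters CCGGAA, the core bound by ETS-family factors, were present in 32 of the 57 canonical genes (56.1%) and in 16.66% of all genes with a promoter. The T-box core AGGTGT was present in 9 of 57 (15.8%), beside 15.7% of all genes with a promoter. The longer form AGGTGTGA, which contains that core, was present in 0 of 57 and in 1.476% of all genes with a promoter. These matches describe the windows only.

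Library totals ran from 20268208 to 24440806 counts. Tbx5, counted over the whole gene, was no lower in mutant-labelled libraries (1894 and 2602 counts, against 1297 to 2165 in the controls). A whole-gene count includes exons outside the deleted part and does not check the deletion, so the genotypes rest on the labels. Ventricular cardiomyocyte markers (Tnnt2, Actn2, Myh7, Myl2, Myl3 and Hand1) took 2.37% to 2.90% of the counts in the controls and 2.75% and 3.14% in the mutants, and all 6 were detected in every library. Control replicates 1 and 3 had almost no Xist, while the 5 other libraries expressed it. Control replicate 5 stood apart from the other controls and mutant replicate 2 from mutant replicate 1, in the directions given below.

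On average, the 82 genes together took a smaller share of the counts in the mutant libraries. Their summed share of all counts was 7.42%, 6.94%, 7.42%, 7.31% and 6.20% in controls 1 to 5. In mutants 1 and 2 it was 6.34% and 5.01%. The ranges overlapped, since control replicate 5 lay below mutant replicate 1. The means were 7.06 ± 0.520% (SD, n = 5) and 5.67 ± 0.934% (SD, n = 2), a difference of -1.38 percentage points. Leaving out mutant replicate 1 made it -2.04 points, and leaving out mutant replicate 2 made it -0.722 points. In bulk tissue, fewer cells of a type and less RNA per cell cannot be told apart.

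**Figure D1:**
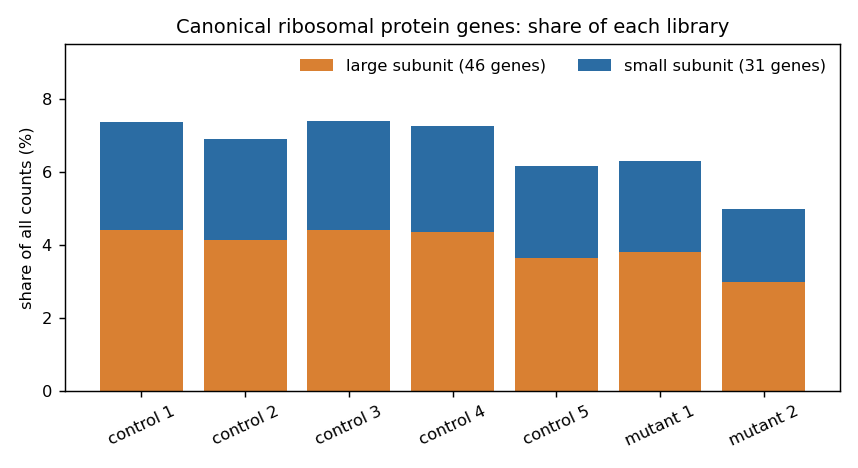
Share of all counts (percent, vertical axis) taken by the 77 canonical ribosomal protein genes in each library, stacked by subunit. Mutant replicate 2 has the lowest bar, and control replicate 5 and mutant replicate 1 lie between it and the other controls.

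Both subunits took smaller mean shares in the mutants. The 31 small-subunit genes took 2.82 ± 0.196% of the counts in the controls (SD, n = 5) and 2.24 ± 0.358% in the mutants (SD, n = 2). The 46 large-subunit genes took 4.19 ± 0.322% and 3.39 ± 0.572%. The ratio of small-subunit to large-subunit counts was 0.670, 0.665, 0.673, 0.671 and 0.686 in the controls, in replicate order, and 0.657 and 0.666 in the mutants. The values of the groups overlapped, because mutant replicate 2 lay above control replicate 2.

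Gene by gene, the quasi-likelihood test of edgeR called 0 of the 82 members at a Benjamini-Hochberg adjusted p of 0.05. It called 1.36% of the 14691 genes tested, 0.899% as lower and 0.463% as higher. At an unadjusted p under 0.05, 61 members were lower and 0 were higher, beside 9.52% of all tested genes lower and 8.09% higher. The 61 were 30 of the 31 small-subunit genes and 31 of the 46 large-subunit genes. By the other tools, DESeq2 called 5 members lower (Rps14, Rpl36, Rpl39, Rpl12 and Rps15a), beside 2.96% of all genes tested called lower. Limma-voom called 0, with 66 lower at an unadjusted p under 0.05, beside 8.95% of all genes tested in that fit. The fold change was negative for 80 of the 82 members and for all 77 canonical genes, beside 51.4% of all genes tested. The median log2 fold change was -0.33 over the members, -0.34 over the small subunit, -0.32 over the large subunit and -0.13 over the paralogs, while over all genes tested it was -0.0080. Leaving out mutant replicate 1 moved the members' median to -0.53, and leaving out mutant replicate 2 moved it to -0.15. In the latter fit 0 members had an unadjusted p under 0.05, beside 5.30% of all genes lower at that p. The authors' deposited table of 668 significant genes listed 0 of the members.

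**Figure D2:**
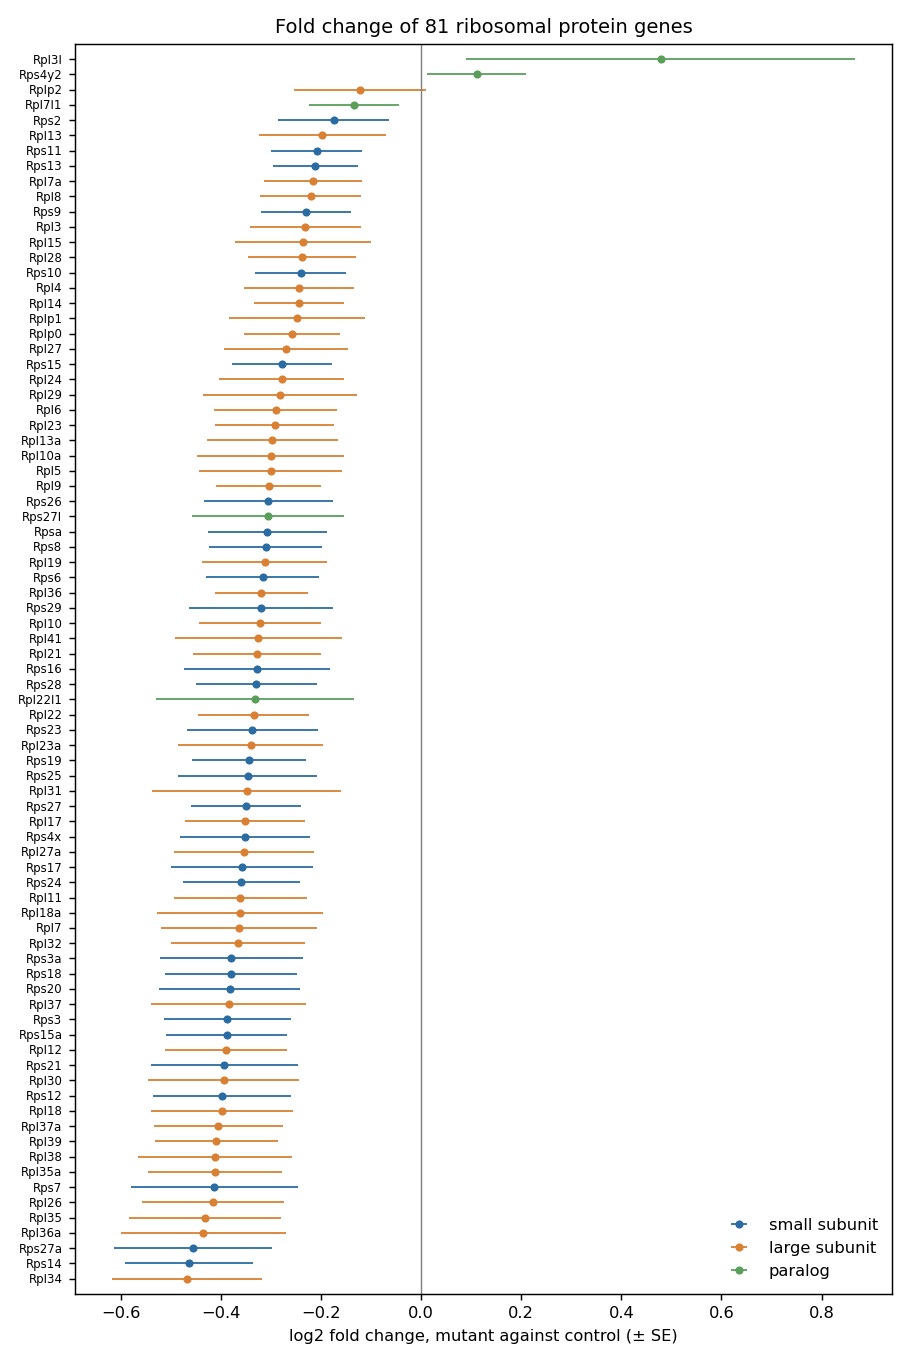
Log2 fold change of 81 of the 82 members (horizontal axis, mutant against control, points with bars of 1 SE), ordered by size and coloured by class. All canonical genes plotted lie left of 0, and Rpl3l and Rps4y2 are the members to the right of it.

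The libraries within each group differed. Relative to the control mean, the median log2 ratio of the members was 0.08, -0.04, 0.10, 0.07 and -0.24 in the controls, again in replicate order, and -0.16 and -0.53 in the mutants. For 67 members the lowest control was replicate 5, and for 8 it was the highest. Mutant replicate 2 was the lowest of all 7 libraries for 79 members. Both mutant libraries lay below every control for 21 members (25.6%), beside 10.4% of all genes tested. These were 13 of the 31 small-subunit genes (41.9%) and 8 of the 46 large-subunit genes (17.4%). Both mutant libraries lay above every control for 0 members, beside 9.73% of all genes tested. Against control replicates 1 to 4 alone, both mutant libraries lay below for 73 members (89%), beside 16.4% of all genes tested. With control replicate 5 and mutant replicate 2 both left out, 0 members were called, beside 0.349% of all genes tested. In that fit 42 members were lower at an unadjusted p under 0.05, beside 6.95% of all genes tested, and the members' median log2 fold change was -0.20.

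**Figure D3:**
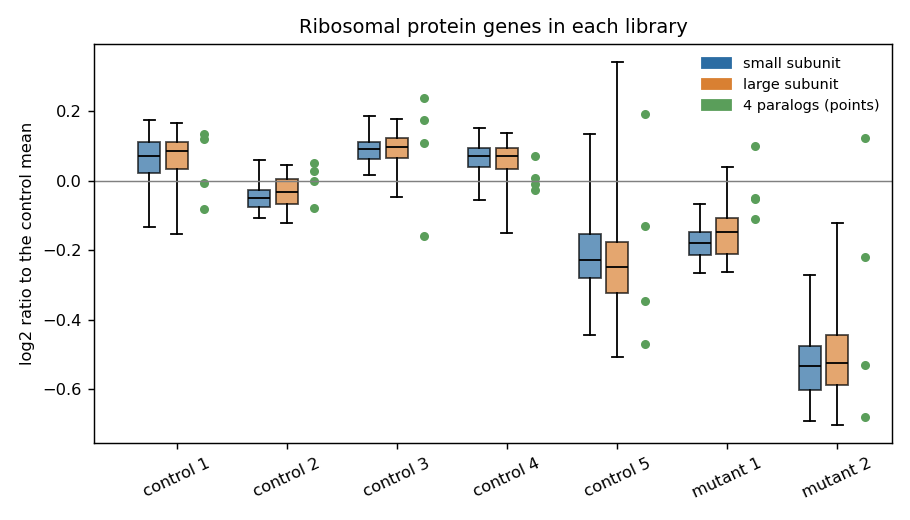
Log2 ratio of each gene to its control mean (vertical axis) in the 7 libraries; boxes show the median and quartiles and whiskers the full range of the 31 small-subunit and 46 large-subunit genes, and points show 4 paralogs, with Rpl3l left out for its low counts. The boxes of mutant replicate 2 lie lowest, with medians of -0.53 in both subunits, and in both subunits the median of control replicate 5 lies below that of mutant replicate 1, with overlapping boxes.

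Of the small subunit, Rps14, a protein of the platform near the messenger RNA exit, had the lowest p of all members. Its level in CPM, the unit that brings counts to equal library totals, was 984, 892, 980, 977 and 824 in the controls and 775 and 576 in the mutants, given here and below in replicate order. Both mutants were below all controls. The log2 fold change was -0.46 with an SE of 0.13 (edgeR adjusted p = 0.102). Without mutant replicate 1 it was -0.69.

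Rps27, a zinc-finger protein of the small subunit, was at 455, 452, 485, 515 and 410 CPM in the controls and 393 and 335 CPM in the mutants. Its log2 fold change was -0.35 with an SE of 0.11 (edgeR adjusted p = 0.142), and both mutants were again below all controls. Rps15a was at 538, 466, 521, 504 and 416 CPM in the controls and 409 and 338 CPM in the mutants, a log2 fold change of -0.39 with an SE of 0.12 (edgeR adjusted p = 0.141). Mutant replicate 1 and control replicate 5 nearly touched in this gene. Rps4x, the X-linked form of protein S4, was at 1955, 1740, 1839, 1824 and 1530 CPM in the controls and 1589 and 1196 CPM in the mutants, and the groups overlapped at control replicate 5.

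Rps29, Rps18, Rps23 and Rps20 had log2 fold changes of -0.32, -0.38, -0.34 and -0.38. In each of these 4 genes mutant replicate 1 lay above control replicate 5. Rps29 ran from 601 to 811 CPM in the controls and was at 683 and 513 CPM in the mutants. Rps20 ran from 624 to 829 CPM in the controls and was at 672 and 506 CPM in the mutants.

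Of the large subunit, Rpl36, Rpl39 and Rpl12 came next to Rps14 in p. Rpl36 was at 366, 353, 398, 383 and 373 CPM in the controls and 322 and 279 CPM in the mutants, with a log2 fold change of -0.32 and an SE of 0.09 (edgeR adjusted p = 0.114). In this gene control replicate 5 lay among the other controls. Rpl39, a very small protein lining the exit tunnel, was at 506, 454, 486, 519 and 412 CPM in the controls and 401 and 316 CPM in the mutants (log2 fold change -0.41, SE 0.12, edgeR adjusted p = 0.128). Rpl12, which binds at the base of the stalk, was at 1069, 1027, 1123, 1091 and 902 CPM in the controls and 894 and 697 CPM in the mutants (log2 fold change -0.39, SE 0.12, edgeR adjusted p = 0.140). Both mutants were below all controls in all 3 genes, though in Rpl12 mutant replicate 1 was just under control replicate 5.

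The stalk proteins P0, P1 and P2, which recruit translation factors to the large subunit, had fold changes nearer 0 than the subunit's median. Rplp0, their anchor, was at 2219, 2086, 2196, 2369 and 2239 CPM in the controls and 2004 and 1712 CPM in the mutants. Both mutants were below all controls, with a log2 fold change of -0.26 and an SE of 0.10 (edgeR adjusted p = 0.202). Rplp1 was at 1309, 1198, 1381, 1332 and 1094 CPM in the controls and 1235 and 893 CPM in the mutants, and the groups overlapped. Rplp2 was at 266, 286, 286, 267 and 375 CPM in the controls and 272 and 272 CPM in the mutants. It was the canonical gene with the fold change nearest 0, at -0.12 with an SE of 0.13, and here control replicate 5 was the highest library. Rplp0 was named after its values were seen, to complete the stalk.

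Rpl7 was at 1706, 1588, 1695, 1571 and 1182 CPM in the controls and 1369 and 1038 CPM in the mutants. Rpl22 was at 432, 418, 439, 424 and 349 CPM in the controls and 351 and 304 CPM in the mutants. Rpl36a was at 479, 447, 479, 454 and 333 CPM in the controls and 379 and 270 CPM in the mutants. In all 3 genes control replicate 5 lay below mutant replicate 1, while both mutants lay below control replicates 1 to 4. Rpl3, Rpl10, Rpl41, Rplp1, Rpl23a and Rpl31 had log2 fold changes of -0.23, -0.32, -0.32, -0.25, -0.34 and -0.35, and their groups overlapped at control replicate 5. For Rplp1, mutant replicate 1 also lay above control replicate 2. Rpl34 had the most negative value of the set, -0.47 with an SE of 0.15, and was named after its values were seen.

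Levels between genes can be compared only per length. In the controls, CPM per kilobase of 1 annotated transcript was highest in the small subunit for Rps29 (1914), Rps4x (1823) and Rps18 (1676) and lowest for Rps23 (405), Rps20 (207) and Rps15a (94.4). In the large subunit the level per kilobase was highest for Rpl41 (2969), Rplp1 (2531) and Rpl23a (1965) and lowest for Rpl31 (461), Rplp2 (307) and Rpl22 (201). The low end depended on the length used: the annotated transcripts of Rps20 and Rps15a were 3706 and 5179 bases long, and per kilobase of coding sequence their levels were 2149 and 1254. Rpl22 stood at 1074 and Rplp2 at 858 on that scale. With merged exons as the length, Rps18 stood at 383, so the high end depended on it too.

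The paralogs had lower levels per length than their canonical partners. Which came nearest in proportion depended on the length used. It was Rpl22l1 per kilobase of transcript, where Rpl22 stood at 201 and Rps27 at 1343. It was Rps27l per kilobase of coding sequence, where Rpl22 stood at 1074 and Rps27 at 1839. Per kilobase of transcript, the control level was 239 ± 32.9 for Rps27l, 135 ± 23.3 for Rpl22l1, 129 ± 12.2 for Rps4y2, 44.4 ± 2.65 for Rpl7l1 and 0.482 ± 0.149 for Rpl3l (SD, n = 5 each). Per kilobase of coding sequence, Rps27l, Rpl22l1, Rpl7l1 and Rpl3l stood at 473, 204, 157 and 0.543, while the lowest canonical gene of either subunit stood at 858. Rps4y2 corresponds to RefSeq Rps4l on chromosome 6, for which no coding length was found.

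No paralog had an unadjusted p under 0.05 in edgeR's test. Rps27l, a paralog of Rps27 known as a p53 target, was at 130, 113, 135, 125 and 93.8 CPM in the controls and 111 and 82.5 CPM in the mutants. Rpl22l1, which can stand in for Rpl22, was at 81.8, 74.5, 87.9, 74.9 and 53.8 CPM in the controls and 72.1 and 46.6 CPM in the mutants. In both, mutant replicate 2 was lowest and control replicate 5 next, and their log2 fold changes were -0.31 with an SE of 0.15 and -0.33 with an SE of 0.20.

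The other 3 paralogs had smaller or positive fold changes. Rpl7l1 was at 115, 118, 125, 115 and 106 CPM in the controls and 112 and 99.4 CPM in the mutants, a log2 fold change of -0.13 with an SE of 0.09, and again mutant replicate 2 was lowest and control replicate 5 next. Rps4y2 was at 115, 126, 108, 119 and 139 CPM in the controls and 130 and 132 CPM in the mutants, with a log2 fold change of 0.11 and an SE of 0.10. Its highest library was control replicate 5. Rpl3l, the muscle paralog of Rpl3, was barely detected, with 19, 10, 17, 17 and 10 counts in the controls and 14 and 26 counts in the mutants. Its log2 fold change was 0.48 with an SE of 0.39, and the groups overlapped.

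Rpl3l was also the member nearest the count minimum. Just outside it lay Rpl39l, with 3, 7, 5, 5 and 3 counts in the controls and 1 and 1 in the mutants. Rpl10l, a retrogene paralog of Rpl10 known from the testis, had 0 counts in every library, while Rpl10 itself was at 1276 to 1581 CPM in the controls and 1329 and 1030 CPM in the mutants.

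Within a library, the ratio of a paralog to its canonical gene does not depend on scaling between libraries. The counts of Rpl7l1 were 6.75% to 8.94% of those of Rpl7 in the controls and 8.16% and 9.58% in the mutants. The log2 ratio differed by 0.23 between the groups (exact two-sided permutation test, p = 0.0952, adjusted p = 0.381 over the 4 pairs tested). For Rpl3l and Rpl3 the share was 0.0269% to 0.0467% in the controls and 0.0435% and 0.0862% in the mutants, and the log2 ratio differed by 0.71 (exact permutation p = 0.190, adjusted p = 0.381). In both pairs mutant replicate 2 had the highest ratio and mutant replicate 1 lay within the control range.

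Rpl22l1 stood at 15.4% to 20.01% of Rpl22 in the controls and at 20.5% and 15.3% in the mutants. The mutants lay on opposite sides of the control range, and the log2 ratio differed by -0.012 (exact permutation p = 0.952, adjusted p = 0.952). Rps27l stood at 22.9% to 28.5% of Rps27 in the controls and at 28.1% and 24.7% in the mutants, within the control range, and the log2 ratio differed by 0.041 (exact permutation p = 0.714, adjusted p = 0.952). With 5 against 2 libraries the smallest p the exact test can give is 0.0476, so after adjustment a pair could pass only if all 4 did. Rps4y2 stood at 5.87% to 9.06% of Rps4x in the controls and at 8.18% and 11.03% in the mutants, and this pair was not tested.

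**Figure D4:**
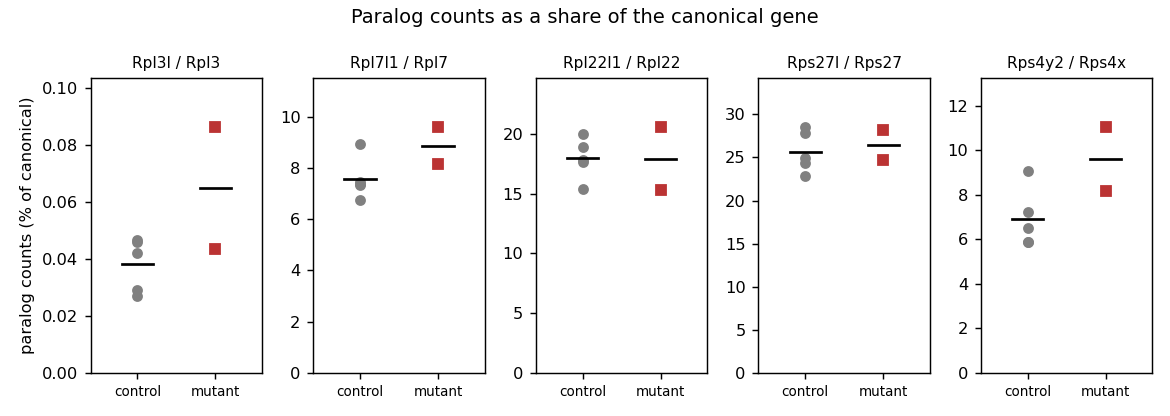
Counts of 5 paralogs as a percentage of those of the canonical gene (vertical axes, each starting at 0) in the 5 control libraries (circles) and the 2 mutant libraries (squares), with lines at the group means. For Rpl22l1 and Rps27l the mutants straddle the control mean, and for Rpl7l1, Rpl3l and Rps4y2 the highest library is mutant replicate 2.

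The nomenclature leaves out a few ribosomal genes. Fau, whose product is cleaved to release protein S30, was at 538.7 ± 45.8 CPM in the controls (SD, n = 5) and 425 ± 86.8 CPM in the mutants (SD, n = 2), a log2 fold change of -0.34. Gnb2l1, which encodes RACK1 of the small subunit, had a log2 fold change of -0.24. Rpl36al, a copy of Rpl36a, had a log2 fold change of -0.33 and stood at 44.6% to 50.7% of Rpl36a in the controls and 49.9% and 53.8% in the mutants. The edgeR test called 0 of these 3 genes. All 3 were lower at an unadjusted p under 0.05, beside 9.52% of all genes tested. Fau and Gnb2l1 were named for having the lowest p of their list, so a low p follows from that choice.

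Genes that build ribosomes had fold changes nearer 0. Of 56 assembly factors of the nucleolus and cytoplasm, 0 passed the edgeR test, and the median was -0.10. At an unadjusted p under 0.05, 8 were lower (14.3%) and 0 higher, beside 9.52% and 8.09% of all genes tested. The fold change was negative for 46, beside 51.4% of all genes tested. Nop16, which acts in the maturation of the large subunit, was at 51.3 ± 2.87 CPM in the controls (SD, n = 5) and 40.1 ± 4.35 CPM in the mutants (SD, n = 2), a log2 fold change of -0.35 with an edgeR adjusted p of 0.0986. Rrp15 had a log2 fold change of -0.34. For both genes the mutants lay below all controls.

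The machinery of RNA polymerase I, which transcribes ribosomal RNA, had a median log2 fold change of -0.08 over 15 genes. The edgeR test called 0 of them. At an unadjusted p under 0.05, 3 were lower (20%) and 1 higher, beside 9.52% and 8.09% of all genes tested. Polr1e, a subunit of the enzyme, was at 55.5 ± 4.76 CPM in the controls (SD, n = 5) and 41.1 ± 4.70 CPM in the mutants (SD, n = 2), a log2 fold change of -0.43 with an edgeR adjusted p of 0.0794. Polr1d, a subunit shared with RNA polymerase III, had a log2 fold change of -0.33 with an edgeR adjusted p of 0.106. In the authors' deposited table Nop16 is listed at a log fold change of -0.359 with a false discovery rate of 0.0460 and Polr1e at -0.440 with 0.0135. Over all the other lists, DESeq2 called Nop16, Polr1d, Polr1e and Myc lower, beside 2.96% of all genes tested called lower in that fit.

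Other messages with a TOP motif, such as those of elongation factors, had a median log2 fold change of -0.13 over 14 genes. All 14 were negative, beside 51.4% of all genes tested, and 0 passed the edgeR test. At an unadjusted p under 0.05, 2 were lower (14.3%), beside 9.52% of all genes tested. These were Eif3e, a subunit of initiation factor eIF3, at -0.39, and Eef1b2, an exchange factor of elongation factor 1, at -0.26. Unlike the ribosomal protein genes, this list took its largest share of the counts in control replicate 5, at 2.29%. It ranged from 2.097% to 2.20% over controls 1 to 4, and the mutants stood at 2.04% and 1.92%.

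Among 16 regulators in the mTORC1 and MYC pathways, 0 passed the edgeR test, and the median was 0.06. At an unadjusted p under 0.05, 1 was lower and 2 higher, beside 9.52% and 8.09% of all genes tested. Myc, a transcription factor that activates ribosomal genes, was at 30.2, 27.1, 24.8, 27.8 and 25.5 CPM in the controls and 22.3 and 18.5 CPM in the mutants. Both mutants were below all controls, with a log2 fold change of -0.41 and an SE of 0.12 (edgeR adjusted p = 0.105). Eif4ebp2, a repressor of cap-dependent translation that mTORC1 inactivates, had a log2 fold change of 0.26 (edgeR adjusted p = 0.195). Free ribosomal proteins can stabilise p53, and of 12 genes of the p53 response 0 passed the edgeR test, 0 had an unadjusted p under 0.05, and the median was -0.05. Ccng1 and Btg2, p53 targets, had log2 fold changes of 0.30 and -0.23. The proteins of the mitochondrial ribosome, a list chosen after the values were seen, had a median of -0.04 over 76 genes. At an unadjusted p under 0.05, 5 of these were lower (6.58%) and 0 higher, beside the same shares of all genes.

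The members are short, and other short genes also had a negative median fold change. The median coding length of the members was 456 bases (75 to 1257), against 1314 bases for the other genes with a mean of at least 100 CPM over the 7 libraries. Among those other genes the median log2 fold change was -0.11 up to 500 bases (236 genes), -0.04 over 500 and up to 1000 bases (455 genes), 0.0042 over 1000 and up to 2000 bases (662 genes) and 0.10 above 2000 bases (599 genes). The members stood at -0.35 up to 500 bases (49 genes) and -0.31 over 500 and up to 1000 bases (29 genes), below the other genes of the same length. By library, the other genes up to 500 bases had a median log2 ratio to the control mean of 0.01 in mutant replicate 1 and -0.23 in mutant replicate 2. In control replicate 5 it was -0.13. Across genes, Spearman's correlation of coding length with the ratio to the control mean was also taken. Over the 1952 other genes with a coding length it was 0.151 and 0.491 in mutant replicates 1 and 2, and 0.163 in control replicate 5. Over the 81 members with a coding length it was 0.368 and 0.379 in the mutants and 0.339 in control replicate 5. The same correlation was taken with GC content, the share of G and C letters. Over the other genes it was 0.0439 and 0.0607 in mutant replicates 1 and 2, and 0.352 in control replicate 5. For the members these values were 0.356, 0.22 and 0.428. Genes of 1 library share its depth and preparation and are not independent replicates. The part of length or GC content in the members' values was not tested.

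**Figure D5:**
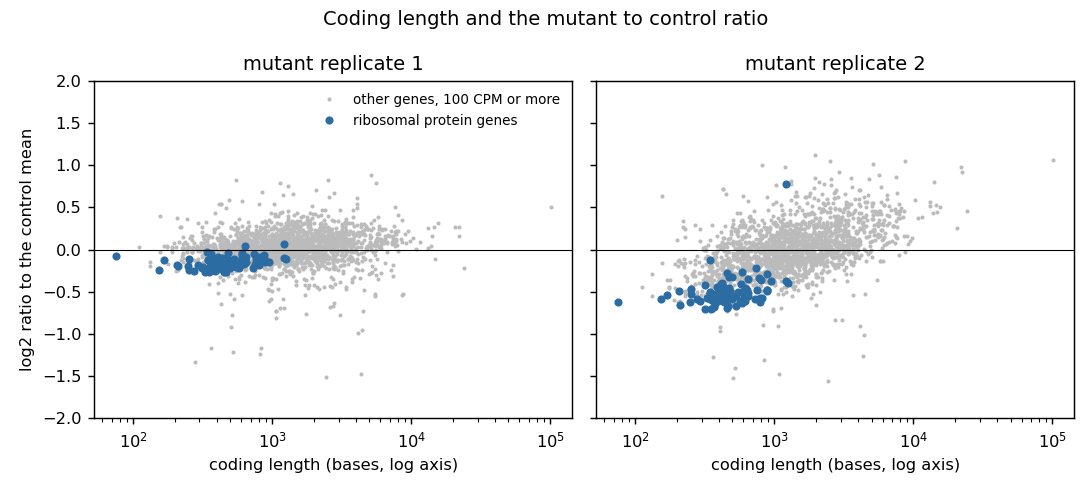
Log2 ratio to the control mean (vertical axis) against coding length (bases, log axis) in mutant replicates 1 and 2, for ribosomal protein genes (large points) and other genes with a mean of at least 100 CPM over the 7 libraries (small points); 1 gene lies outside the plotted range. The ribosomal protein genes sit at short lengths, and in mutant replicate 2 the other genes tilt from negative ratios at short to positive ratios at long coding lengths.

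Markers of some other cell types also differed between the groups. Cushion mesenchyme and fibroblast markers (Postn, Twist1, Col1a1, Col3a1, Pdgfra and Sox9) took 0.201% to 0.343% of the counts in the controls and 0.117% and 0.117% in the mutants, and 5 of the 6 fell in the edgeR test. Macrophage markers took 0.0147% to 0.0203% and then 0.0125% and 0.0091%, with 3 of 6 called lower, and epicardial markers 0.0296% to 0.0403% and then 0.0284% and 0.0215%, with 1 of 5 called lower. Erythroid markers took 0.457% to 1.01% in the controls, highest in control replicate 5, and 0.588% and 0.632% in the mutants. Endothelial markers took 0.0603% to 0.0826% and then 0.0521% and 0.0807%. The 6 ventricular cardiomyocyte markers had a median log2 fold change of 0.34, and the edgeR test called 0 of them. At an unadjusted p under 0.05, 4 were higher and 1 was lower, beside 8.09% and 9.52% of all genes tested. No marker was at 0 in any library. With haemoglobin as a covariate 74 members were lower at an unadjusted p under 0.05, beside 11.2% of all genes tested in that fit. With Xist as a covariate 20 were, beside 6.25% of all genes, and the members' median log2 fold change was -0.27. The part of these cell types in the ribosomal protein values was not tested.

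Reads of 50 bases cannot always be placed within these genes. For 47 of the 82 members at least 50% of all 50-base stretches of the annotated transcript also occur in a transcript of another gene. In 4 members a row of another symbol repeated the member's counts to within 2% in every library: Rpl26 with Gm15772, Rpl30 with Gm12191, Rps27 with Gm9846, and Rpl34 with Rpl34-ps1. The median log2 fold change was -0.34 for the 47 genes with much shared sequence and -0.32 for the other 35. Among the 8 members with under 10% shared it was -0.33.

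By promoter, the median log2 fold change was -0.35 over the 19 canonical genes with a C/T run at the start, of which 14 had an unadjusted p under 0.05. It was -0.33 over the 38 without a run, of which 32 did. Rpl34 and Rplp2, both with a run, were at opposite ends of the canonical genes.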

How the data were processed

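The deposited table holds read counts per gene symbol and library, not normalized. The submitters' processing notes name build mm10, TopHat2 2.1.1, edgeR 3.16.5, limma 3.30.13, R 3.3.2 and featureCounts. Annotation, strand setting and the handling of multiply matching reads are not given in the sources. The authors' second deposited table lists genes with a log2 fold change (log base inferred from its values), a false discovery rate and a p-value.

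Counts were tested in R 4.3.3 with edgeR 4.0.16 (filterByExpr with minimum count 10 and total 15, TMM, robust glmQLFit and glmQLFTest) on all 7 libraries with genotype as the only term. All 14691 tested genes entered the Benjamini-Hochberg adjustment (threshold 0.05). CPM used TMM-scaled totals. Paralog ratios used 0.5 added to each count. The test was tested on simulated data. limma 3.58.1 (voom) and DESeq2 1.42.0 were alternatives. At totals of 20268208 to 24440806 counts, the spread between libraries (biological coefficient of variation 0.128) is the main error of the abundant members.

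Members and lists were chosen with earlier results of these data known. Named genes were called members, paralogs with partners, the 4 lowest p in each direction, the 3 highest and lowest per kilobase in each subunit, the genes nearest the count minimum, and the 2 lowest p of each other list. Transcript and coding lengths came from GENCODE M21, and the rule for choosing 1 transcript per gene was settled after lengths were seen. Start sites and sequences came from RefSeq GRCm38.p6. No library repeated another of its group: the chi-square of their counts was 9.99 to 31.9 times its degrees of freedom. Python 3.11.15 with matplotlib 3.10.9 drew the figures. The values of 1 member and of 1 gene of another list are not reported here.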

Additional observations from a re-analysis of the deposited data

Results flagged for a closer look

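In 7 of 53 sets of 5 control values looked at, 1 control lay far from the other 4 (a gap of over 0.71 of the whole range), and each time it was control replicate 5. Chance alone flags about 1 in 20 such sets. The sets come from the same 5 control libraries and are not independent, so 7 of 53 cannot be judged against that rate. Rpl7 was at 1182 CPM there, against 1571 to 1706 in the other controls, Rpl22 at 349 against 418 to 439, Rpl36a at 333 against 447 to 479, and Rpl31 at 340 against 491 to 541. Rplp2 was high instead, at 375 CPM against 266 to 286. Outside the ribosomal proteins, Nop16 was low at 46.3 CPM against 51.4 to 53.2, and Btg2 was high at 42.4 CPM against 33.2 to 35.2.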

How the results depend on the processing

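The number of members called was 0 with other scalings, without the filter, with limma-voom, at an adjusted p of 0.1, among members with 10 counts in all 7 libraries, and with Xist or haemoglobin as a covariate. It was 5 with DESeq2, and leaving out each replicate gave 0 to 1 (1 without mutant replicate 1). With the replicate number as a block it was 16, but the numbers are only shared: deviations of control and mutant libraries with the same number correlated at 0.0775 and 0.0117. All 16 members were called lower, beside 3.49% of all genes tested called lower with the block. In either direction, all genes called with the block numbered 811 (5.52%), against 200. The median log2 fold change ran from -0.53 to -0.15 over the replicates left out, the difference in the share of all counts from -2.04 to -0.722 percentage points, and the difference of the subunit medians, -0.02, was 0.0097 with the block. Among the other lists 4 genes were called with DESeq2, 3 with the block (Polr1e, Eif3e and Myc) and 2 with haemoglobin as a covariate (Polr1e and Eif3e), against 0. Each was called lower. Of all genes tested, 2.96%, 3.49% and 1.21% were called lower in these fits, in the same order. The log2 ratio difference of Rpl22l1 to Rpl22 turned positive without control replicate 1 (0.0077), control replicate 3 (0.028) or mutant replicate 2 (0.20), and was 0.14 without control replicate 5 and mutant replicate 2 together; with each replicate left out it ran from -0.22 to 0.20. That of Rps27l to Rps27 was -0.055 without mutant replicate 1, and the Rpl3l log2 fold change was -0.058 without control replicate 5 and mutant replicate 2. The cause of these changes was not tested. Per-length levels on coding or merged-exon length were added after seeing the data. Where either mutant library is left out, the lone one is assumed to vary like the controls.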
